A study of Homo sapiens with 24 samples.

Results

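The GADD45 family consists of 3 genes, GADD45A, GADD45B and GADD45G, which were taken by symbol from the annotation of the array, as 3 of the 22395 genes that it names. Each had 1 probe set: 16665932 for GADD45A (chromosome 1), 16856803 for GADD45B (chromosome 19) and 17086676 for GADD45G (chromosome 9). All 3 reached the median of all values (2.42 on the log2 scale) on 24 of 24 arrays and were among the 17526 genes tested. GADD45A ran from 3.10 to 4.94, GADD45B from 3.88 to 7.55 and GADD45G from 3.91 to 7.56.

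GADD45 proteins are small, acidic proteins without known enzyme activity that are made when a cell is damaged or stressed. They bind other proteins, among them the kinase MAP3K4, which feeds the p38 and JNK stress kinases, and the cell cycle proteins CDK1, cyclin B1, PCNA and p21. GADD45A was found as a gene induced by DNA damage and growth arrest, GADD45B as an early gene of myeloid differentiation, and GADD45G as a gene induced by a cytokine. Their transcripts are short-lived and respond early to stress.

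The arrays measured RNA of HAP1, a near-haploid human line derived from the leukaemia line KBM-7. PAR is the parental line. S51A is named for a change of the serine of the translation factor eIF2-alpha that stress kinases phosphorylate, and HRI, GCN2, PKR and PERK are lines that lack the eIF2-alpha kinase in their name. Heme-regulated HRI is known as the kinase that arsenite activates. The parental and the edited lines were purchased, and each genotype is represented by 1 line, so an effect of the edit and any other feature of that line cannot be told apart.

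Cells of each line had no drug (9 arrays), lomustine at 200 µM for 2 h (9 arrays) or the treatment titled SA100 for 2 h (6 arrays). Lomustine is a chemotherapy drug that alkylates and crosslinks DNA. SA100 was read as sodium arsenite (NaAsO2) at 100 µM from the treatment protocol, although the agent field of these arrays names lomustine. Repetitions A and B exist for the untreated and lomustine groups of PAR, S51A and HRI, and the other 12 of the 18 groups of line and treatment are 1 array each. Nothing says whether A and B were separate cultures, so p-values measure only the spread between these arrays and lines, which may be technical.

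The median of each array lay between 2.34 and 2.58. S51A lomustine B stood apart, with 8.37% of its probe sets more than 1 log2 unit from their median over the arrays, against 3.16% on the next array, PAR lomustine A. The transcripts of the targeted genes gave no check of the labels: for EIF2AK1, EIF2AK2, EIF2AK3, EIF2AK4 and EIF2S1, the arrays of the line concerned overlapped those of the other lines, which a small edit or a probe outside it allows. Of 6 mesenchymal markers, VIM (3.64 to 5.53), FN1 (5.16 to 6.33) and COL1A1 (3.44 to 4.31) were above the median of all values on 24 of 24 arrays, and COL1A2 (2.14 to 2.80), PDGFRB (1.76 to 2.49) and DCN (1.44 to 1.84) lay around or under it. Of 8 blood markers, PTPRC, which marks white blood cells, did not exceed 2.08 on any array, but GATA1, a factor of red cell and platelet precursors, was 3.34 to 4.42, and the fetal globin gene HBG1 (2.09 to 3.22) reached the median on 20 arrays. EPCAM, an epithelial marker, lay between 3.92 and 6.66 on the 5 S51A arrays and between 2.57 and 3.58 on the others. KRT8 (3.65 to 4.76 on S51A arrays, 3.33 to 3.87 on the others), CDH1, KRT18 and KRT19 overlapped between S51A and the other lines. The mean level of 5 epithelial markers spanned 2.88 to 3.58 without drug, 2.92 to 3.78 with lomustine and 2.95 to 3.33 with SA100. That of the 7 measured blood markers stayed between 2.39 and 2.74.

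Promoter sequences of 2 of the 3 members were taken from RefSeq (GRCh38.p14), 250 bases before the transcription start on the + strand. No promoter entry matched GADD45A, so its window is not shown. Any relation of these letters to the changes by line was not tested. Capitals mark the matches to the motifs searched. The GADD45B window is chr19:2475877-2476126 and the GADD45G window chr9:89604762-89605011.
GADD45B: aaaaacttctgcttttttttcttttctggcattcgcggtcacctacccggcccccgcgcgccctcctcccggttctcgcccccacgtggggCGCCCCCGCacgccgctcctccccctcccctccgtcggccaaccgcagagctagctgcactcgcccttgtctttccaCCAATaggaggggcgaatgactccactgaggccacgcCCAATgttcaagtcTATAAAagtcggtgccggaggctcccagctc
GADD45G: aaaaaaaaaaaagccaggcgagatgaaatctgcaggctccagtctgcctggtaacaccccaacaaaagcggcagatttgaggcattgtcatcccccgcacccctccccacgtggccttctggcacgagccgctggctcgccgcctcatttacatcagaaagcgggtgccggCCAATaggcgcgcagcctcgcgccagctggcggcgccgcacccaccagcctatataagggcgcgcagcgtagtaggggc

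Motifs were searched on both strands: the CCAAT box, which is named by its letters, CRE (TGACGTCA), the AP-1 site (TGACTCA), the GC box (GGGCGG), the EGR site as either GCGGGGGCG or GCGTGGGCG, the C/EBP-ATF site (TGATGCAA), the heat shock element core (GAANNTTC) and the TATA box (TATAAA). The GADD45B window held the CCAAT box at 82 and 45 bases before the start, a motif that 32.0% of 35116 promoter windows of this length hold. It also held the first EGR motif on the reverse strand at 159 bases (4.72% of windows) and TATA at 31 bases (10.7%). The GADD45G window held the CCAAT box at 79 bases, and had no match of TATAAA or of the first EGR motif. Near its end it has the letters TATATAAG, which were not among those searched. The 2 windows may thus differ less than the matches alone show. CRE (1.65% of windows), AP-1 (4.20%), the GC box (42.6%), the second EGR motif (0.720%), C/EBP-ATF (0.772%) and the heat shock core (5.78%) had no match of these letters in either window. The windows were 63.2% and 61.6% G and C. A match is a description of the letters and not of binding.

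**Figure D1:**
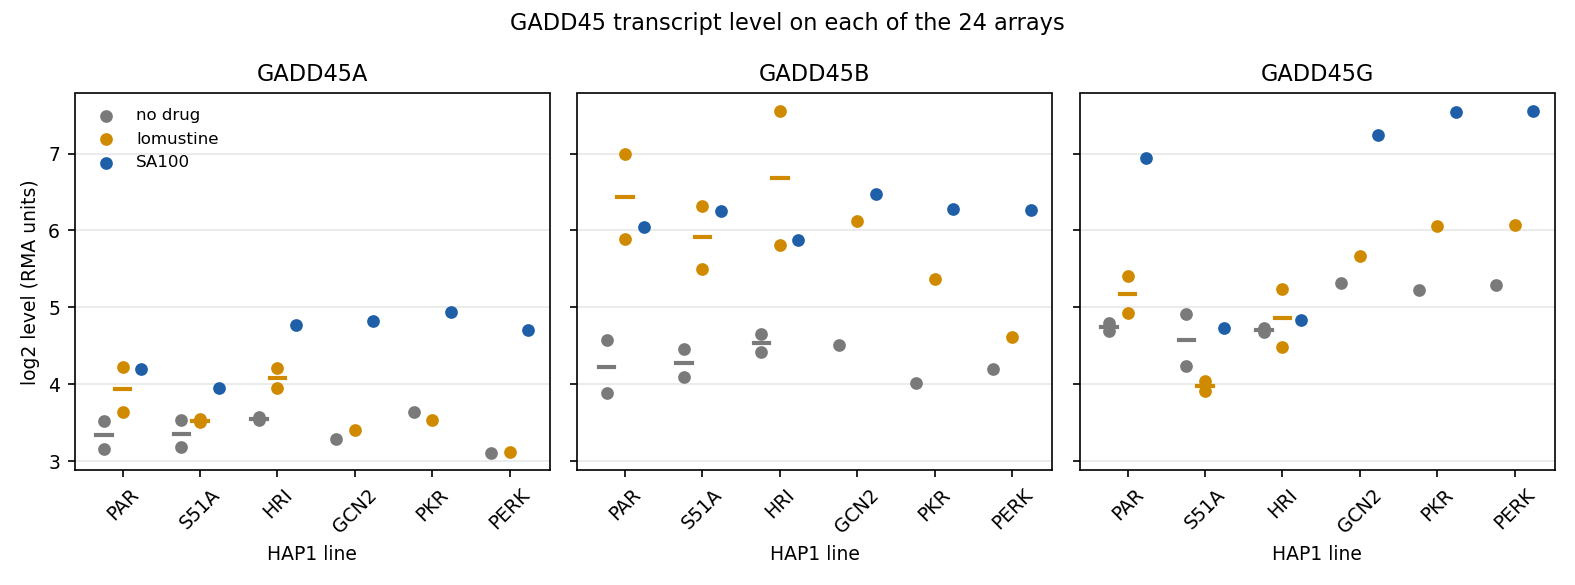
Log2 level (RMA units) of each GADD45 gene on each of the 24 arrays, by HAP1 line; grey points are arrays without drug, orange with lomustine and blue with SA100, and short bars are means of groups with 2 arrays. GADD45B is high with both agents, except in PERK with lomustine (4.62, under the highest untreated array at 4.65). GADD45A is high with SA100. GADD45G is high with SA100 in PAR, GCN2, PKR and PERK (6.94 to 7.56) but not in S51A and HRI (4.73 and 4.83). Levels of different probe sets are not comparable with each other.

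The first question was which GADD45 gene lomustine changed across the lines. GADD45B rose by 1.71 on the log2 scale (SE 0.244), 3.26-fold, in a fit with terms for treatment and line (limma, Benjamini-Hochberg adjusted p = 4.95e-04), the fifth largest rise of all genes tested. GADD45A and GADD45G did not pass. Among all genes tested, 0.245% rose with lomustine by this test.

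Without drug, GADD45B was 4.57 and 3.88 in PAR, 4.46 and 4.10 in S51A, 4.65 and 4.42 in HRI, 4.51 in GCN2, 4.01 in PKR and 4.20 in PERK. With lomustine it was 6.99 and 5.89 in PAR, 5.50 and 6.32 in S51A, 5.81 and 7.55 in HRI, 6.13 in GCN2, 5.36 in PKR and 4.62 in PERK. The lomustine arrays were above all untreated arrays except that of PERK, whose 4.62 was just under the highest untreated value, 4.65 in HRI. The mean was 4.31 ± 0.272 (SD, n = 9) without drug and 6.02 ± 0.874 (SD, n = 9) with lomustine, so the spread was wider with the drug. Repetitions A and B with lomustine differed by 1.10 in PAR, 0.825 in S51A and 1.74 in HRI. In RNA of whole cultures, a change in every cell and a change in a share of the cells cannot be told apart.

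By line, the GADD45B change with lomustine was 2.21 in PAR, 2.14 in HRI, 1.63 in S51A, 1.61 in GCN2, 1.35 in PKR and 0.42 in PERK. It was above 0 in 6 of 6 lines, with a mean of 1.56 and an SD over lines of 0.653. An exact 2-sided sign-flip permutation test over the 6 lines gave p = 0.0312, the smallest that 6 lines allow, and 0.0563 after adjustment over 9 such tests. The mean of the line-wise changes, tested with limma in a fit with 1 mean per group, did not pass (1.56, adjusted p = 0.0885). None of the 3 genes had all lomustine arrays above all untreated arrays, which 0.0628% of genes had.

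GADD45A was between 3.10 and 3.64 without drug (median 3.52, 9 arrays) and between 3.12 and 4.23 with lomustine (median 3.54). Its change of 0.29 (SE 0.135, limma adjusted p = 0.339) did not pass, and the arms overlapped. PAR went from 3.52 and 3.16 to 4.23 and 3.64, and HRI from 3.57 and 3.53 to 3.95 and 4.20. The changes were 0.59 in PAR and 0.53 in HRI, and from -0.11 (PKR) to 0.17 (S51A) in the other 4 lines.

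GADD45G was between 4.23 and 5.32 without drug (median 4.80, 9 arrays) and between 3.91 and 6.07 with lomustine (median 5.24). Its change of 0.21 (SE 0.224, limma adjusted p = 0.714) did not pass, and the lines went in both directions. The change was 0.84 in PKR, 0.77 in PERK, 0.42 in PAR, 0.34 in GCN2, 0.15 in HRI and -0.59 in S51A.

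SA100 was then set against no drug, to ask which members responded to the second agent. All 3 passed: GADD45B rose by 1.94 (SE 0.275, 3.84-fold, limma adjusted p = 1.53e-04), GADD45G by 1.40 (SE 0.253, 2.63-fold, adjusted p = 0.00257) and GADD45A by 1.18 (SE 0.152, 2.27-fold, adjusted p = 4.36e-05). Of all genes tested, 2.09% rose with SA100. The line-wise change was above 0 in 6 of 6 lines for each member (exact sign-flip p = 0.0312, adjusted 0.0563, n = 6 lines). For GADD45G, 2 of these were near 0, with 0.16 in S51A and 0.13 in HRI. The one in S51A was -0.18 against untreated A and 0.49 against untreated B. Limma's F test for a GADD45G response to SA100 that differs between lines (F = 7.2, unadjusted p = 0.0035) did not pass after adjustment, and 0 genes passed it.

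With SA100, GADD45A was 4.94 in PKR, 4.82 in GCN2, 4.77 in HRI, 4.71 in PERK, 4.20 in PAR and 3.95 in S51A. All 6 were above the highest untreated array at 3.64. GADD45A changed by 1.61 in PERK, 1.53 in GCN2, 1.30 in PKR, 1.22 in HRI, 0.85 in PAR and 0.59 in S51A.

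GADD45B was 6.47 in GCN2, 6.28 in PKR, 6.26 in PERK, 6.26 in S51A, 6.04 in PAR and 5.88 in HRI with SA100. These 6 arrays spanned 0.594 log2 units, against 2.93 over the 9 lomustine arrays, and all were above the highest untreated value. The changes ran from 1.34 in HRI to 2.27 in PKR. For GADD45A and GADD45B all SA100 arrays were above all untreated arrays, as for 1.10% of genes, and GADD45G was not among these.

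GADD45G split by line. With SA100 it was 7.56 in PERK, 7.54 in PKR, 7.24 in GCN2 and 6.94 in PAR, but 4.83 in HRI and 4.73 in S51A. Untreated values were 4.80 and 4.70 in PAR, 4.91 and 4.23 in S51A, 4.73 and 4.68 in HRI, 5.32 in GCN2, 5.22 in PKR and 5.29 in PERK. The SA100 arrays of S51A and HRI thus lay within or next to the untreated range of their own line, and those of the other 4 lines were above all other 20 arrays, a separation that 0.576% of genes tested had.

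**Figure D2:**
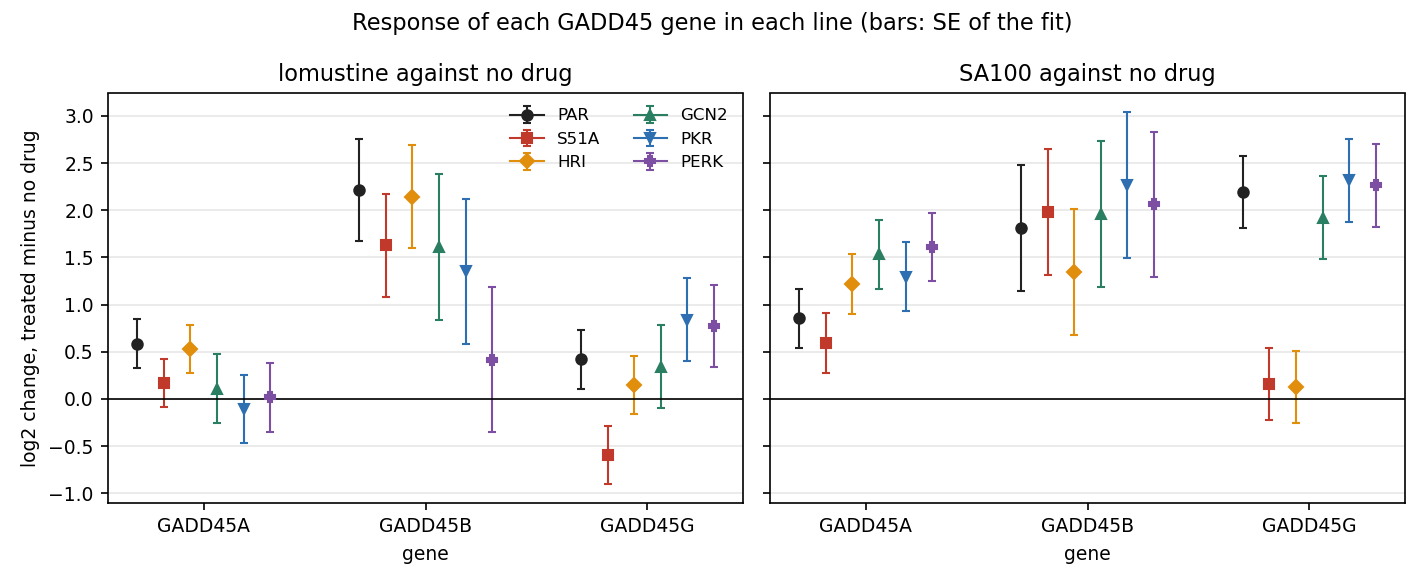
Log2 change against no drug of each GADD45 gene in each of the 6 lines, for lomustine and SA100; bars are the SE from a fit with 1 mean per group, in which a group of 1 array takes its spread from the groups of 2. With SA100, GADD45G changed by 1.92 to 2.32 in PAR, GCN2, PKR and PERK and by 0.16 and 0.13 in S51A and HRI, and with lomustine the S51A value is below 0.

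Set against each other directly, SA100 gave higher levels than lomustine of GADD45G (1.18, SE 0.253, limma adjusted p = 0.00848) and GADD45A (0.90, SE 0.152, adjusted p = 0.00135), where 5.46% of genes were higher. GADD45B differed by 0.23 (SE 0.275, adjusted p = 0.679; 95% confidence interval -0.34 to 0.80). It was higher with SA100 than with lomustine in 4 lines, by up to 1.65 in PERK, and lower in PAR (-0.40) and HRI (-0.80). GADD45A was higher with SA100 in 6 of 6 lines and GADD45G in 5 of 6, HRI being at -0.03.

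Within single lines, no member passed limma's test for either agent. Few genes did in any such comparison: the share that rose with lomustine was 0% in PAR, 0.00571% in S51A and 0% in HRI. With SA100 it was 0.0285% in PAR, 0.0285% in S51A, 0.0171% in HRI, 0.0571% in GCN2, 0.0628% in PKR and 0.0399% in PERK. The smallest adjusted p of a member was that of GADD45G with SA100 in PAR (2.19, SE 0.379, adjusted p = 0.154). GADD45G in PKR (2.32, SE 0.438, adjusted p = 0.218) and PERK (2.26, SE 0.438, adjusted p = 0.275) followed. GADD45A with SA100 in PERK (1.61, SE 0.364) came next, before GADD45G in GCN2 (1.92, SE 0.438, adjusted p = 0.622).

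The members were also compared with each other, as differences of their line-wise changes. With lomustine the change of GADD45B was above that of GADD45A in 6 of 6 lines, by a mean of 1.34 (SD 0.470, exact sign-flip p = 0.0312, adjusted 0.0938 over 6 tests, n = 6 lines). With SA100 it was above it in 6 of 6 lines as well, by a mean of 0.72 (SD 0.464, exact p = 0.0312, adjusted 0.0938). With lomustine GADD45B exceeded GADD45G in 5 of 6 lines, by a mean of 1.24 (exact p = 0.0625, adjusted 0.125); the exception was PERK. The other 3 differences had exact p from 0.469 to 0.719. No pair passed after adjustment. The smallest exact p that 6 lines allow is 0.0312.

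Whether the members' responses depended on eIF2-alpha phosphorylation was asked by setting S51A, and HRI, against the mean of the 4 lines that keep both the serine and HRI. GADD45G had an SA100 response smaller by 2.02 in S51A (-2.02, SE 0.434, 95% confidence interval -2.98 to -1.06) and smaller by 2.05 in HRI (-2.05, SE 0.434, interval -3.01 to -1.09). In S51A the epithelial marker EPCAM had an SA100 change of -1.39 and the mesenchymal marker VIM one of 0.81. Their differences from the 4 lines were -1.40 (SE 1.10) and 0.65 (SE 0.611), while in HRI these differences were 0.02 and 0.13. The other epithelial markers changed less in S51A, by -0.09 (KRT8), 0.09 (CDH1), 0.23 (KRT18) and 0.47 (KRT19). The other mesenchymal markers changed there by 0.01 (COL1A1) to 0.20 (COL1A2). VIM was also 3.64 to 5.13 on the S51A arrays against 4.93 to 5.53 on the others, and the part of these markers in the GADD45G result was not tested. Neither GADD45G difference passed limma's test over all genes (adjusted p = 1 for both). It called 0% of genes lower in each comparison, with 177 and 209 genes at an unadjusted p under 0.05. Of 17526 genes, GADD45G had the seventh smallest p in S51A and the third in HRI. GADD45A differed by -0.73 in S51A (SE 0.361) and -0.11 in HRI (SE 0.361). GADD45B differed by -0.05 in S51A (SE 0.765) and -0.68 in HRI (SE 0.765), with adjusted p = 1 throughout. The GADD45B intervals were wide (-1.74 to 1.64 and -2.37 to 1.01), so a difference of the size seen for GADD45G was outside the first and inside the second.

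**Figure D3:**
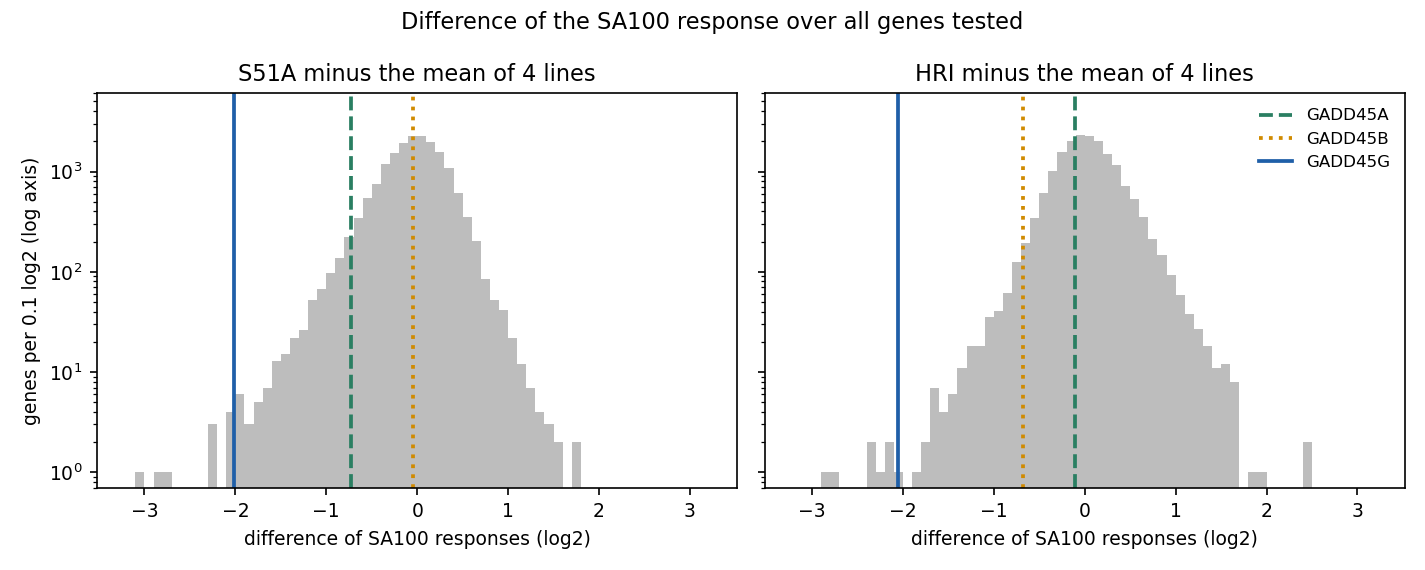
Distribution over the 17526 genes tested of the difference of the SA100 response between S51A (left) or HRI (right) and the mean of PAR, GCN2, PKR and PERK, in bins of 0.1 log2 on a log axis of gene counts; vertical lines mark the members. GADD45G lies in the low tail in both panels (-2.02 and -2.05), and GADD45A and GADD45B lie closer to the bulk.

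A fit chosen after seeing the data, in which PAR, GCN2, PKR and PERK share 1 response to each agent, gave the same sizes with more degrees of freedom. The shared GADD45G response to SA100 was 2.16 (SE 0.170, 4.48-fold, limma adjusted p = 5.66e-07), where 1.36% of genes rose. S51A changed by 0.16 (95% confidence interval -0.49 to 0.81) and HRI by 0.13 (interval -0.52 to 0.77). The differences from the 4 lines were -2.00 (SE 0.352, adjusted p = 0.129) in S51A and -2.04 (SE 0.352, adjusted p = 0.124) in HRI, the third smallest p in each. Neither passed, and 0.00571% of genes were called lower in either comparison. S51A and HRI differed from each other by -0.03 (HRI minus S51A, interval -0.95 to 0.89). Both comparisons use the same arrays of the 4 lines and are therefore not independent of each other. Leaving out 1 array at a time, the S51A difference stayed between -2.34 and -1.67 and the HRI difference between -2.10 and -1.98. Each range covers 23 of the 24 arrays. The only SA100 array of the line concerned, on which its difference rests, could not be left out. After the table was quantile normalized again, the HRI difference passed (-2.11, adjusted p = 0.0208).

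In that fit the other members' responses to SA100 also passed in the 4 lines, with 2.08 for GADD45B (SE 0.357, adjusted p = 0.00343) and 1.33 for GADD45A (SE 0.190, adjusted p = 6.43e-04). GADD45A changed by 0.59 in S51A (interval -0.13 to 1.32) and 1.22 in HRI (interval 0.49 to 1.95). GADD45B changed by 1.98 in S51A (interval 0.62 to 3.34) and 1.34 in HRI (interval -0.02 to 2.71).

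The same question was asked of lomustine. GADD45G was 4.92 and 5.41 in PAR, 5.66 in GCN2, 6.06 in PKR and 6.07 in PERK with lomustine, each above the untreated arrays of its line. In S51A it was 4.04 and 3.91, both below the untreated 4.91 and 4.23, and in HRI the 2 arrays (5.24 and 4.48) fell on either side of the untreated ones. The difference between S51A and the 4 lines was -1.19 (SE 0.371, limma adjusted p = 1) and did not pass. No gene was called lower in this comparison or in that for HRI (0% each), with 256 and 172 genes at an unadjusted p under 0.05. It was -1.12 without S51A lomustine B, the array that stood apart. With the shared response of the 4 lines it was -1.15 (SE 0.297, adjusted p = 0.971). In that fit it ran from -1.49 (without S51A untreated B) to -0.82 (without S51A untreated A) when 1 array was left out, and it passed in 1 of 24 cases, without S51A lomustine A (-1.22, adjusted p = 0.0444), where 1281 genes passed. In HRI the difference was -0.44 (SE 0.371). GADD45A and GADD45B had differences of 0.01 and 0.23 in S51A and of 0.38 and 0.74 in HRI, each with adjusted p = 1 (SE 0.308 for GADD45A and 0.654 for GADD45B).

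Levels over all treatments were compared between lines as well. GADD45G differed between lines (moderated F = 9.37, limma adjusted p = 0.00483), as 3.56% of genes did, and GADD45A (F = 1.95, adjusted p = 0.616) and GADD45B (F = 1.17, adjusted p = 0.868) did not pass. Against PAR, GADD45G was -0.99 in S51A (SE 0.301, adjusted p = 0.113), -0.56 in HRI (SE 0.301), 0.55 in GCN2, 0.75 in PKR and 0.78 in PERK (SE 0.349 each), and no single line passed. In those comparisons 0.884% of genes were lower in S51A, 0.0571% lower in HRI, 0.0571% higher in GCN2, 0% higher in PKR and 0.0913% higher in PERK. The line terms of this fit also take in the GADD45G split by line with SA100. Without the HRI SA100 array, HRI against PAR was -0.26, and without that of S51A, S51A against PAR was -0.79. Already without drug, the single arrays of GCN2, PKR and PERK (5.22 to 5.32) were above the 6 arrays of PAR, S51A and HRI (4.23 to 4.91).

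Over the 18 groups of line and treatment, the GADD45G order ran from PERK, PKR, GCN2 and PAR with SA100 down to S51A with lomustine (3.98). The step from PAR with SA100 to the next group, PERK with lomustine, was 0.874 and was the one step larger than the largest gap between repetitions A and B of a group (0.761). All other neighbours in the order lay within that gap, and so did all 17 steps for GADD45A (largest step 0.513, largest A to B gap 0.591) and for GADD45B (0.748 and 1.74). GADD45B was highest in HRI with lomustine (6.68) and lowest in PKR without drug (4.01). GADD45A was highest in PKR with SA100 (4.94) and lowest in PERK without drug (3.10).

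Other genes carry the same name. PPP1R15A (GADD34), the phosphatase subunit that removes the phosphate from eIF2-alpha, rose with lomustine by 0.82 (SE 0.127) and with SA100 by 1.83 (SE 0.144). DDIT4, an inhibitor of mTOR complex signalling, rose by 1.77 (SE 0.273) and 2.66 (SE 0.308). DDIT3 (GADD153, CHOP), a stress transcription factor, rose with SA100 by 1.81 (SE 0.313), and its 0.97 with lomustine did not pass (limma adjusted p = 0.0990). DDIT4L, a relative of DDIT4, passed in neither (-0.15 and 0.01). Of these 4 genes, 2 rose with lomustine and 3 with SA100, beside 1 and 3 of the 3 GADD45 genes. Among all genes tested, 0.245% rose with lomustine and 2.09% with SA100. The medians of the 4 genes were 0.89 and 1.82, against -0.04 and 0.04 over all genes tested.

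Their SA100 response by line separated them. PPP1R15A changed by 1.40 (GCN2) to 2.14 (PERK), with S51A at 1.89 and HRI at 1.60, inside that range, as GADD45B did in S51A. DDIT3 changed by 0.53 in S51A and 1.01 in HRI, against 1.42 in PAR and 2.57 to 2.99 in GCN2, PERK and PKR. Its untreated levels were under 2.42 except for HRI untreated A at 3.06. Against HRI untreated B alone the change in HRI was 1.46, above that in PAR, and against A alone 0.56. DDIT4 changed by 1.15 in S51A and 2.32 in HRI, against 2.85 to 4.15 in the other 4 lines. S51A and HRI had the smallest changes of the 6 lines in both genes, as in GADD45G, but for HRI in DDIT3 this rests on untreated A. The differences of S51A from the 4 lines were -2.07 for DDIT4 (SE 0.517) and -1.93 for DDIT3 (SE 0.605), with limma adjusted p = 1 for both.

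**Figure D4:**
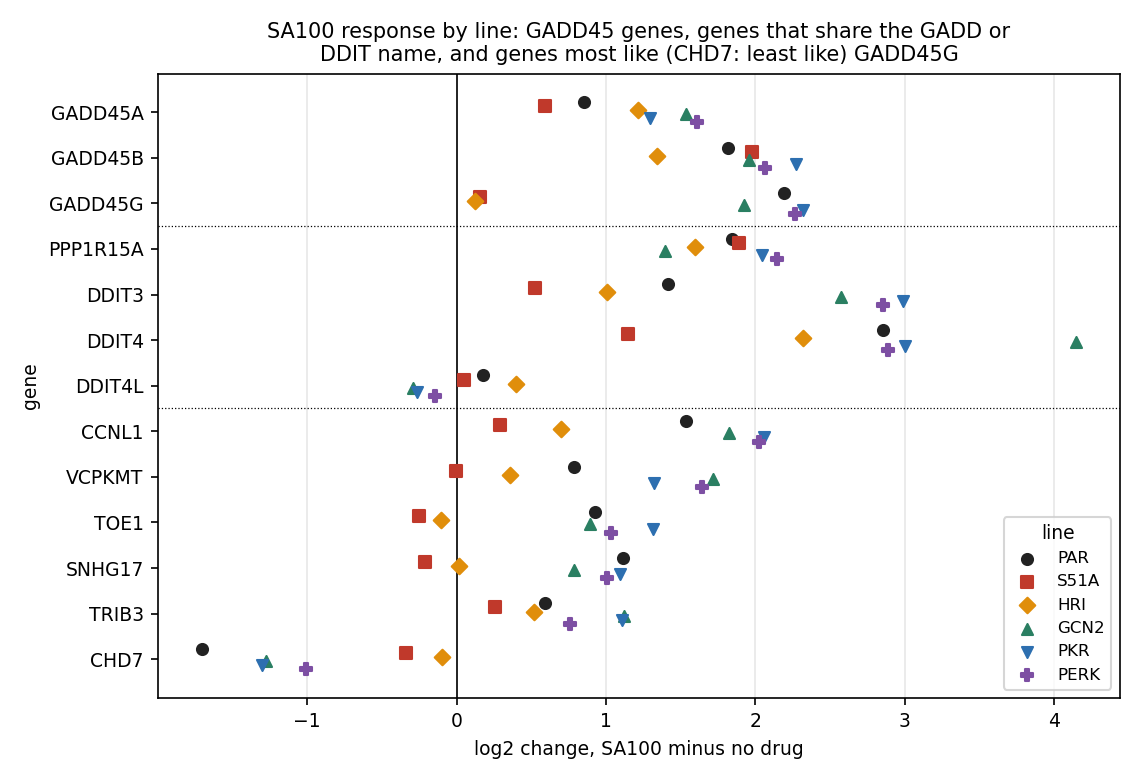
Log2 change with SA100 against no drug in each of the 6 lines (markers) for the 3 GADD45 genes, the 4 genes with the GADD or DDIT name, and the 5 genes most like and 1 least like GADD45G over the 24 arrays. Values of S51A and HRI lie apart from the other lines for GADD45G (0.16 and 0.13 against 1.92 to 2.32), and within them for PPP1R15A. The lower 6 genes were chosen on these same arrays.

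The genes whose levels followed each member most closely over the 24 arrays were listed as a description, with Pearson's r; the arrays share treatments and lines, so r mostly follows the arms. For GADD45B they were SERTAD1 (r = 0.940), a regulator of cell cycle transcription, CEBPB (0.873), EGR1 (0.834), SGK1 (0.824) and PPP1R15A (0.810). For GADD45A they were the peptide hormone gene ADM (0.867), the chaperone gene HSPH1 (0.858), the cytokine receptor gene TNFRSF1A (0.855), the collagen chaperone gene SERPINH1 (0.853) and JUN (0.852). For GADD45G they were CCNL1 (0.886), a cyclin of splicing, VCPKMT (0.874), a methyltransferase of VCP, TOE1 (0.872), an exonuclease, SNHG17 (0.853), a noncoding host transcript, and TRIB3 (0.850), a stress pseudokinase. The lowest r were -0.818 with COX1 for GADD45A, -0.792 with LOC100190986 for GADD45B and -0.794 with CHD7, a chromatin remodeller gene, for GADD45G. The members themselves had r of 0.696 (GADD45A and GADD45B), 0.560 (GADD45A and GADD45G) and 0.256 (GADD45B and GADD45G) over the same 24 arrays.

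With SA100, CCNL1 changed by 1.53 to 2.06 in the 4 lines, 0.29 in S51A and 0.70 in HRI. TOE1 changed by 0.89 to 1.32 in the 4 lines, -0.25 in S51A and -0.10 in HRI, and CHD7 by -1.70 to -1.01 in the 4 lines, -0.34 in S51A and -0.10 in HRI. SERTAD1, most like GADD45B, changed by 2.08 in S51A and 1.50 in HRI, inside the 1.09 to 2.27 of the other lines.

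Partners of the proteins were read from lists chosen with earlier results of these data known. Of 13 stress kinases downstream of GADD45, 10 were tested, and 0 passed limma's test in any of the 3 comparisons of treatments. Of all 17526 genes tested, 178 passed with lomustine, 533 with SA100 and 1041 between the agents. With shares this low, 0 of 10 does not set the list apart. Their median change was -0.06 with lomustine and -0.05 with SA100, against -0.04 and 0.04 over all genes tested. The smallest p belonged to MAP3K4 (-0.43, SE 0.160) and MAPK9 (-0.45, SE 0.185) with lomustine, and to MAPK12 (0.26, SE 0.099) and MAP2K4 (0.32, SE 0.171) with SA100. MAP3K4 is the kinase that GADD45 proteins bind, MAP2K4 activates JNK, MAPK9 is a JNK and MAPK12 a p38 kinase.

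Of 7 cell cycle and growth partners, 0 passed in any of the 3 comparisons. With 178, 533 and 1041 of all 17526 genes passing in them, this does not set the list apart either. CDKN1A (p21) had 0.57 with SA100 (SE 0.173, limma adjusted p = 0.0829), and NPM1, a nucleolar protein that binds GADD45A, had -0.41 (SE 0.133, adjusted p = 0.101). With lomustine NPM1 had -0.41 (SE 0.118) and CCNB1, cyclin B1, had -0.30 (SE 0.101). The list's median was -0.15 with lomustine and 0.11 with SA100. NPM1 ran from 2.41 to 3.51, near the median of all values.

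Among 8 of 9 repair and DNA demethylation partners that were tested, 0 passed with lomustine, where 178 of all 17526 genes did. Of all genes tested, 366 rose and 167 fell with SA100. With SA100, ING1, which guides GADD45A to methylated histones, rose by 0.39 (SE 0.094, limma adjusted p = 0.0267), and TET3, a dioxygenase that oxidises methylcytosine, fell by 0.66 (SE 0.156, adjusted p = 0.0227). TDG, the glycosylase that removes the oxidised base, had -0.35 with lomustine (SE 0.110, adjusted p = 0.136). The list's medians were -0.18 and -0.12.

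Of 20 transcription factors reported to act on GADD45 genes, 18 were tested, of which 5 rose with lomustine, 6 with SA100 and 0 fell, where 0.245% and 2.09% of all genes tested rose. EGR1 rose by 3.57 (SE 0.216) with lomustine and 4.85 (SE 0.244) with SA100, and JUN by 2.11 (SE 0.280) and 6.21 (SE 0.316). ATF3 rose by 1.42 and 2.71, FOS by 1.15 and 3.68, and CEBPB by 0.47 and 0.64, and DDIT3 rose with SA100. ZNF350, a repressor of GADD45A, was higher with SA100 than with lomustine by 0.76 (SE 0.197, limma adjusted p = 0.0248). The list's median change was -0.001 with lomustine and 0.20 with SA100, against -0.04 and 0.04 over all genes tested. EGR1 changed with SA100 by 4.66 in S51A and 3.63 in HRI, against 4.68 to 5.71 in the other 4 lines. JUN changed by 6.39 in S51A and 5.47 in HRI, within the 5.41 to 7.24 of the others. FOS changed by 3.44 in S51A and 2.76 in HRI, against 3.72 to 4.58 in the others. In HRI the EGR1 response was thus smaller than the mean of the 4 lines by 1.64 (-1.64, SE 0.641, 95% confidence interval -3.06 to -0.22) and that of FOS by 1.26 (-1.26, SE 0.467, interval -2.29 to -0.23), with limma adjusted p = 1 for both. ATF4 had a change of 0.17 in S51A, -0.14 in HRI and 0.26 to 0.39 in the other 4 lines. ATF3 changed with SA100 by 2.375 in S51A and 2.136 in HRI, against 2.437 to 3.955 in the other 4 lines. With lomustine it changed by 0.78 and 0.83, against 1.18 to 2.64. CEBPB changed with SA100 by 0.47 in S51A and 0.49 in HRI, against 0.51 to 0.84. No difference of ATF3 or CEBPB from the 4 lines passed limma's test.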

How the data were processed

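Total RNA of HAP1 cells was measured on 24 Affymetrix arrays. The authors deposited log2 values for 53617 probe sets, made with RMA and the R package affy, per the submitters' processing notes. Versions, filters and the genome build are not given in the sources used here. Of the probe sets, 23871 had 1 gene symbol, 1842 several and 27904 none, in the platform annotation, and 90 symbols were updated through RefSeq. For the 632 genes with several probe sets, that with the highest mean was used. A gene was tested if at least 2 arrays reached the median of all values (2.42).

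Tests used limma 3.58.1 in R 4.3.3, 2-sided, with Benjamini-Hochberg adjustment over the 17526 genes tested and a threshold of 0.05. A fit with terms for treatment and line (16 residual degrees of freedom) gave treatments and lines. A fit with 1 mean per group (6 residual degrees of freedom, from 6 duplicated groups, whose spread the 12 groups of 1 array are taken to share) gave responses within and between lines. A fit with 1 response shared by 4 lines (12 residual degrees of freedom) was added after seeing the data. Sign-flip permutations were exact, and SD and SE are as named. The fits were tested on simulated data. The members and lists were chosen with earlier results of these data known. Named genes are the members, genes of the GADD name, the targeted genes, EGR1, JUN, the 5 highest and 1 lowest r per member, and from each list up to 4 called genes, or 2 by smallest p where none was called; other list genes and line-wise values were named after they were seen. Not measured through a probe set of 1 symbol: MAP2K7, MAPK14, ERCC5, POU2F1 and CD33. MAPK10 was not tested. A further listed gene is not reported here. Arrays give no read depth, and their number limits the precision. Python 3.11.15, numpy 2.4.6 and pandas 2.3.3 were used for the rest.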

Additional observations from a re-analysis of the deposited data

Results flagged for a closer look

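In S51A both lomustine arrays of GADD45G were below both untreated ones, while each lomustine array of PAR, GCN2, PKR and PERK was above the untreated ones of its line, a difference of -1.19 (log2) between the responses. It did not pass limma's test over all genes (adjusted p = 1). A difference of this size was not particular to GADD45G. The same difference was -1.85 for DDIT4, -1.19 for DDIT3, -0.11 for DDIT4L and -0.02 for PPP1R15A. CCNL1 and TOE1, chosen on these same arrays, changed with lomustine by -0.86 and -0.98 in S51A. In the other lines they changed by 0.16 to 0.76 and by -0.26 to 0.49. EPCAM was also higher on the S51A arrays (3.92 to 6.66) than on the others (2.57 to 3.58), while the other epithelial markers overlapped. S51A lomustine B stood apart from the other arrays. The part of EPCAM and of that array in the result was not tested beyond leaving the array out (-1.12). In the fit with 1 response shared by the 4 lines the difference was -1.15, and it passed without S51A lomustine A (-1.22, adjusted p = 0.0444). None of the 9 groups of one gene and treatment held a sample far from the others by Dixon's criterion.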

How the results depend on the processing

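The members' calls across lines (GADD45B with lomustine, all 3 with SA100, GADD45A and GADD45G between the agents) kept direction and side of the threshold under no filter, a stricter filter, the mean of probe sets, quantile normalization, centring, a trended robust prior, only the arms compared, and without each line or array. The exception was GADD45B with lomustine as the mean of line-wise contrasts (1.56, adjusted p = 0.0885). Over alternatives other than single arrays, GADD45G with SA100 spanned 1.21 to 1.70 (adjusted p up to 0.0352), GADD45A 1.10 to 1.32 and GADD45B 1.87 to 2.06.

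Counts over all genes moved more, from 178 (lomustine), 533 (SA100) and 1041 (SA100 against lomustine). Centring gave 91, 280 and 602, and quantile normalization 897 with SA100. Only the arms compared gave 114 with lomustine and 326 between the agents, and the mean of line-wise contrasts 22, 137 and 107. Without a line, lomustine gave 50 (PAR), 89 (S51A), 109 (HRI), 64 (GCN2), 99 (PKR) and 92 (PERK), SA100 gave 337 (PAR), 348 (HRI), 211 (GCN2), 211 (PKR) and 203 (PERK), and SA100 against lomustine 663 (HRI), 452 (GCN2), 437 (PKR) and 330 (PERK). Without S51A lomustine B and PAR lomustine A, SA100 gave 1216. Without 1 array the counts ran from 88 (PAR untreated B) to 310 (S51A lomustine A), from 236 (PERK SA100) to 939 (S51A lomustine B) and from 421 (PERK SA100) to 1240 (S51A lomustine A). The arrays whose loss moved a count by over 1.5 times were, for lomustine, both untreated arrays of PAR and S51A, lomustine A of both, GCN2 in both arms and PERK lomustine; for SA100, PAR untreated B, S51A lomustine B, and GCN2, PKR and PERK in both arms; and between the agents, PERK lomustine and the SA100 arrays of HRI, GCN2, PKR and PERK. The share of calls that were higher was 24.2% with lomustine, 68.7% with SA100 and 91.9% between the agents, and 54.7%, 58.1% and 66.5% after quantile normalization (34.1%, 73.2% and 92.5% centred).

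Differences near 0 changed sign. For GADD45A, the lomustine response of S51A minus that of the 4 lines was 0.01, and -0.0200 after quantile normalization, -0.0759 centred, -0.0728 with a shared response (-0.12 quantile, -0.16 centred), and from -0.16 to 0.19 without 1 array. For GADD45B it was 0.23, and -0.0168 with a shared response and centring, -0.0431 without both arrays, and from -0.18 to 0.64 without 1 array; that of HRI ran from -0.12 to 1.61. The SA100 difference of S51A for GADD45B was 0.0597 after quantile normalization. It ran from -0.23 to 0.13 without 1 array other than the only SA100 array of S51A, which could not be left out. The GADD45G difference of HRI passed with a shared response and quantile normalization (-2.11). Within lines and without 1 array, the GADD45A change with lomustine in S51A ran from -0.0119 to 0.346 and that of GADD45G in HRI from -0.23 to 0.53. GADD45G in S51A against PAR passed without 1 array in 2 cases (S51A untreated A or HRI SA100, adjusted p of 0.0250 and 0.0464), with a range of -1.24 to -0.79. The cause of these changes was not tested.

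The labels do not say whether the letters A and B pair the arrays. Across genes, the A minus B difference without drug and that with lomustine correlated at r = 0.334 for PAR, -0.386 for S51A and -0.560 for HRI. These mixed signs do not settle it, and the S51A value includes lomustine B, the array that stood apart. With a replicate block GADD45B rose by 1.71 with lomustine (adjusted p = 6.74e-04), and 199 genes passed. The block, fitted to the lomustine comparison across lines and within PAR, S51A and HRI, changed none of the members' calls there, and was not fitted for SA100, whose groups have 1 array each.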
